A study of Sus scrofa with 15 samples.

Results

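The genes described here are the nuclear genes for subunits of oxidative phosphorylation, measured in natural killer (NK) cells of pig blood and liver. They were taken by symbol as every gene starting with NDUFA, NDUFB, NDUFC, NDUFS, NDUFV, UQCR, ATP5 or COX4 to COX8, together with SDHA to SDHD. Assembly factors starting with NDUFAF were left out. This gave 70 of 29886 genes. By complex these are 37 genes of complex I, 4 of complex II, 2 of complex III, 10 of complex IV and 17 of complex V. Of the 17, ATP5S and ATP5SL carry the prefix in their names but are not subunits of the enzyme. NDUFA4 and its relative NDUFA4L2 were counted with complex IV, where NDUFA4 is now placed. A filter on low counts left 67 of the 70 genes for testing, among 10939 genes tested. SDHD, NDUFA4L2 and COX8H fell below the filter.

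Complexes I to V sit in the inner mitochondrial membrane. Complexes I and II pass electrons from NADH and succinate to ubiquinone, complex III passes them to cytochrome c, and complex IV passes them to oxygen. Complexes I, III and IV pump protons, and complex V, the ATP synthase, lets protons flow back and makes ATP. Most subunits are encoded in the nucleus and imported, while a small core of complexes I, III, IV and V is encoded by mitochondrial DNA. NK cells are known to use this pathway at rest and to raise it, together with glycolysis, when they are activated.

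RNA came from 5 pigs, 6 months old, and each animal gave 3 sorted populations, so that there were 15 libraries. The blood population was CD3-CD172a-CD8α high, and it is called blood NK here. The liver flush gave a CD3-CD172a-CD8α high population, labelled conventional liver NK (liver CD8α high here), and a CD3-CD172a-CD8α dim population, labelled liver resident NK (dim here). No genotype, breed, sex or treatment is given for the animals in the sources used here. The liver cells were released by flushing the portal vein with cold saline, a step that blood cells did not undergo, so that organ and isolation cannot be told apart.

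Libraries were made from the 3′ end of transcripts, and their totals ran from 2003499 to 5680221 counts. Levels are given as CPM, the counts of a gene scaled to the total of its library. In all 15 libraries the 7 NK markers summed to between 2078 and 4982 CPM. CD8A, which encodes the sorted antigen, was lower in dim than in blood NK cells (log2 fold change -3.43, adjusted p = 1.24e-08). Of the other 6 NK markers, NCR1, KLRB1, KLRD1 and NKG7 were called higher, by 0.53 to 2.47, and KLRK1 and PRF1 were not called. Without the dim library of pig 3, 3 NK markers rather than 4 were called higher. Markers of other cells also moved with the dim population. The 4 tested B cell markers were all higher, and the list of 5 summed to 214 to 685 CPM in dim, 10.9 to 109 in blood and 0 to 44.2 in liver CD8α high libraries, while the T cell list of 3 ran from 110 to 593 CPM in dim and from 637 to 1200 in blood. Of these 3, CD3G was called lower (-1.58, adjusted p = 0.00216), and CD3E (-2.21) and CD3D (1.15) were not called. The 6 myeloid markers summed to at most 25.6 CPM in dim, 6.24 in blood and 2.93 in liver CD8α high libraries, and the 1 tested, LYZ, was called higher in dim than in liver CD8α high cells (4.57, adjusted p = 0.0272). The LYZ call was lost in edgeR with the pig as a block. Hepatocyte markers reached at most 6.74 CPM in any library. The 3 red cell markers summed to at most 315 CPM in blood (median 2.98), 56.6 in liver CD8α high and 24.1 in dim libraries, and the 1 tested was not called. The dim library of pig 3 stood apart: it held the lowest value of the 5 dim libraries for 31.9% of all genes tested and the highest for 29.9%. Values with and without it are given where the call of a subunit gene depends on it. Other lists are given with the genes whose calls depend on it, and the NK markers with their count only. The part of other cells and of that library in the differences below was not tested.

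As a group, the subunit genes differed little between dim and blood NK cells. Of 67 tested genes, 6 were called higher in dim cells and 0 lower (edgeR's quasi-likelihood F-test, with p-values adjusted by Benjamini-Hochberg over every gene tested and a threshold of 0.05). The 6 are ATP5L and ATP5J2 of complex V, COX5B and COX7A2 of complex IV, and NDUFB2 and NDUFB3 of complex I. Among all genes tested, 18.2% were called, 8.62% higher and 9.60% lower. The 8.96% of subunit genes called higher therefore lies near the background. The count of 0 lower calls lies below it, with 1 subunit gene, NDUFS6, lower at an unadjusted p under 0.05. Without the dim library of pig 3 the calls were 6 higher and 1 lower, against 20.6% of all genes. There were 3 calls without pig 4 and 3 without pig 5. The median log2 fold change of the 67 genes was 0.09, against 0.01 over all genes tested, with 42 genes above 0 and 25 below. The median size of the change, in either direction, was 0.23 for subunit genes and 0.45 for all genes. For 42 of the 67 genes (62.7%) the whole 95% interval lay within a log2 fold change of 1 either way, against 36.7% of all genes tested. Subunit genes were also measured more precisely, with a median SE of 0.24 against 0.34 over all genes. The part of precision in the smaller changes and narrower intervals was not tested. In RNA from sorted bulk cells, fewer cells of a type and less RNA per cell cannot be told apart. The p-values measure the spread between libraries of these 5 animals within populations, pooled over the 3 populations and without a term for the pig.

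**Figure D1:**
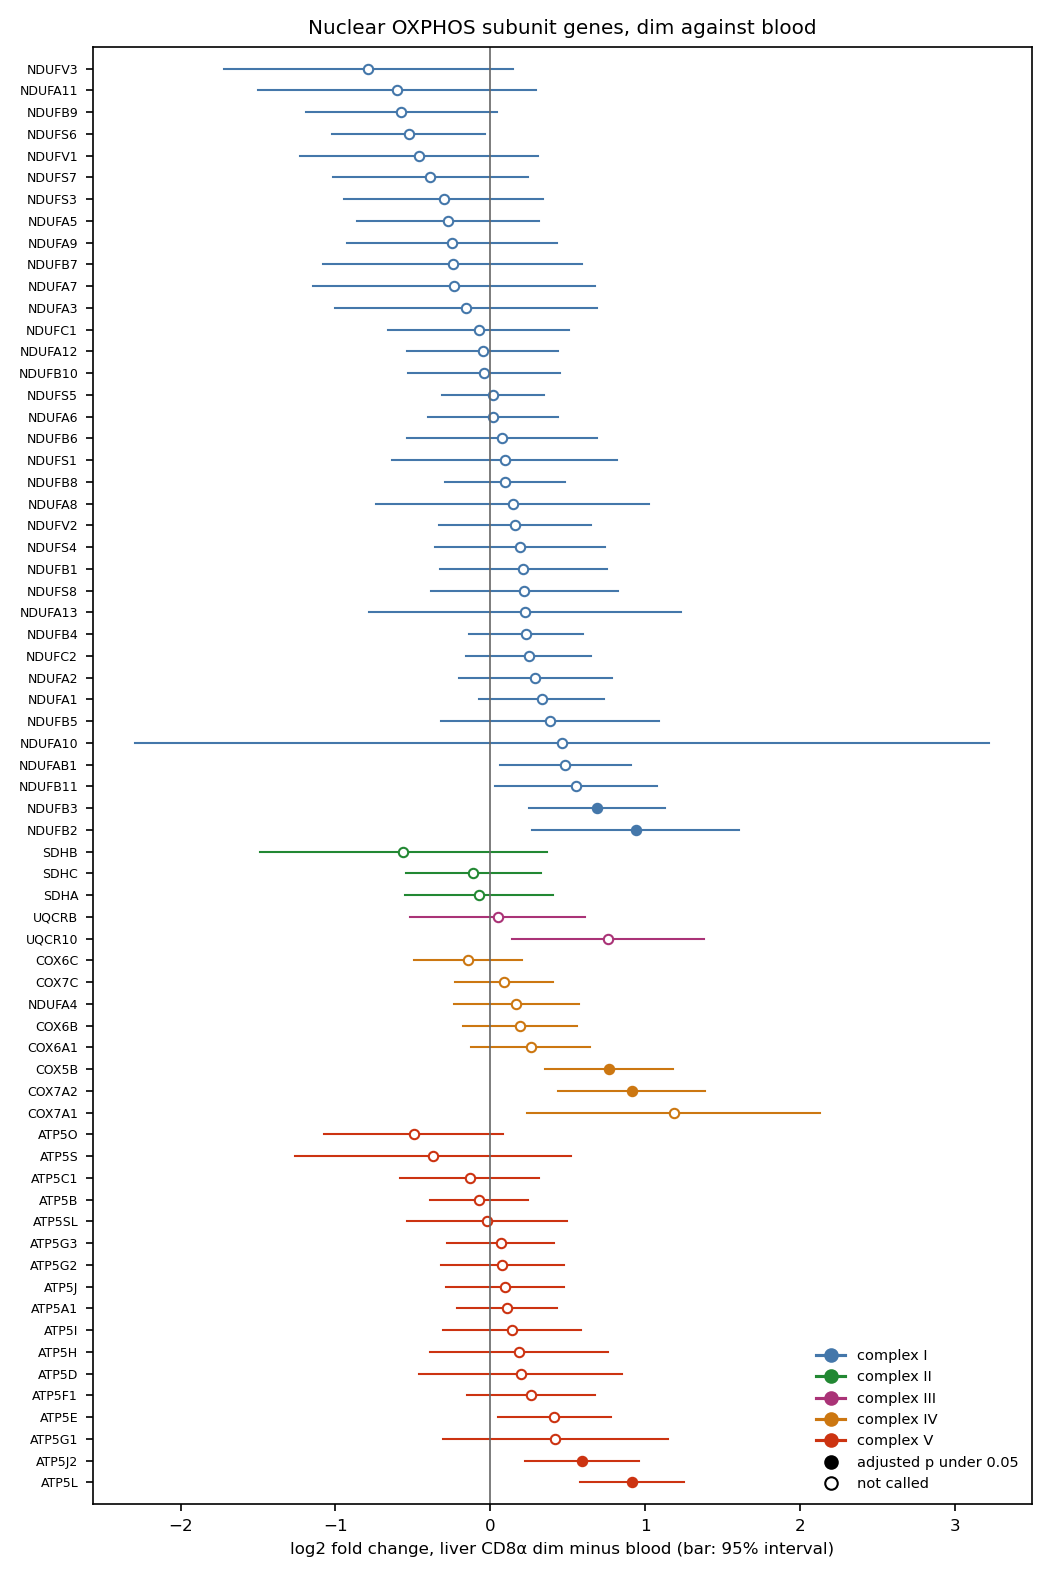
Log2 fold change of 66 tested subunit genes in dim against blood NK cells (x axis), one gene per row, ordered by complex and size, with bars for the 95% interval. Filled points are the 6 genes with an adjusted p under 0.05, all to the right of 0, and most other intervals cross 0.

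Of the 6 genes, ATP5L gave the smallest p. ATP5L, the g subunit of the membrane part of ATP synthase, lies on chromosome 9 (45706449 to 45716541, Sscrofa11.1). Its level in pigs 1 to 5 was 344, 421, 331, 331 and 308 CPM in blood, 404, 433, 426, 393 and 344 in liver CD8α high, and 746, 487, 789, 759 and 486 in dim libraries. Every dim library lay above every library of the other 2 populations. The fold was 1.88 against blood (log2 fold change 0.91, SE 0.16, adjusted p = 3.14e-04) and 1.63 against liver CD8α high cells (0.71, SE 0.16, adjusted p = 0.00389). The call was made in all 15 alternative settings in both comparisons. Without the dim library of pig 3 the log2 fold change against blood was 0.85.

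ATP5J2, the f subunit, sits beside ATP5L in the membrane part and lies on chromosome 3 (6389338 to 6396960). Its blood levels were 121, 113, 149, 122 and 137 CPM, those in liver CD8α high cells 157, 171, 142, 152 and 129, and those in dim cells 122, 192, 180.2, 260.1 and 214. It was higher in dim than in blood cells in 5 of 5 pigs, with pig 1 nearly level (log2 fold change 0.59, SE 0.18, adjusted p = 0.0218). The populations overlapped. The call was lost without pig 2, 4 or 5 and in a fit of only these 2 populations. The e subunit ATP5I, the other gene of this group of 3, had a log2 fold change of 0.14 (adjusted p = 0.724).

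The rest of complex V was not called in any comparison. The catalytic head genes ATP5A1 (alpha) and ATP5B (beta) had log2 fold changes in dim against blood of 0.11 (95% interval -0.21 to 0.43) and -0.07 (-0.39 to 0.25). ATP5E, the epsilon subunit, took the most counts of the 70 genes. It measured 526 to 627 CPM in blood, 595 to 685 in liver CD8α high and 565 to 1181 in dim libraries, and its log2 fold change in dim against blood was 0.41 (adjusted p = 0.114). The 1181 CPM came from the dim library of pig 3, and the other dim libraries lay between 565 and 958. The c subunit, which forms the rotating ring, is encoded by 3 genes for the same mature protein. Of these, ATP5G3 and ATP5G2 had log2 fold changes of 0.07 and 0.08 and ATP5G1 one of 0.42, with adjusted p between 0.473 and 0.842. ATP5O, the stalk subunit OSCP, was lower in dim than in blood in 5 of 5 pigs, at 200.2, 198, 47.3, 297 and 191 CPM against 237, 281, 272, 313 and 216, and was not called (log2 fold change -0.50, adjusted p = 0.253). The inhibitor of the enzyme is listed under its older symbol ATPIF1, which the choice by symbol does not take. Its log2 fold change was -0.04 (adjusted p = 0.946).

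In complex IV, 2 of 8 tested genes were called higher (25%, against 8.62% of all genes called higher), a share that rests on few genes. COX5B, a subunit on the matrix side of cytochrome c oxidase, lies on chromosome 3 (56630297 to 56632107). Its levels in pigs 1 to 5 were 155, 178, 177, 139.8 and 106 CPM in blood, 193, 165, 186, 168 and 119.7 in liver CD8α high, and 191, 192, 345, 324 and 234 in dim libraries. Every dim library lay above every blood library, while dim pigs 1 and 2 lay just below the highest liver CD8α high library. The log2 fold change was 0.76 against blood (SE 0.20, adjusted p = 0.00924) and 0.63 against liver CD8α high cells (SE 0.20, adjusted p = 0.0362). Against blood the call was lost without pig 4 (0.64, adjusted p = 0.0739). Against liver CD8α high cells it was lost in 6 of 15 alternatives, among them the fit without the dim library of pig 3 (0.50, adjusted p = 0.079).

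COX7A2, the widely expressed isoform of subunit VIIa, lies on chromosome 1 (90696746 to 90703407). It measured 47.2, 76.2, 46.7, 41.6 and 50.8 CPM in blood, 58, 68.3, 56, 69.5 and 65.2 in liver CD8α high, and 98, 81.6, 118, 141 and 55.6 in dim libraries. Dim was higher than blood in 5 of 5 pigs, although dim pig 5 lay below blood pig 2 (log2 fold change 0.91, SE 0.23, adjusted p = 0.00715). The call was lost without pig 4 (0.67, adjusted p = 0.0815). COX7A1, the isoform of heart and skeletal muscle, had the largest log2 fold change of the 67 genes, 1.18, with a wide interval (0.24 to 2.13) and no call (adjusted p = 0.0778). Its level was 4.7 to 14.4 CPM in blood, and 18.7, 13, 44.3, 18.5 and 8.36 in dim. Without the dim library of pig 3 the change was 0.72 (adjusted p = 0.272).

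The other tested complex IV genes lay closer to 0 in dim against blood. COX6C and COX6A1, among the 5 genes with the most counts, had log2 fold changes of -0.14 and 0.26, with adjusted p of 0.631 and 0.386. Those of COX6B, COX7C and NDUFA4 were 0.19, 0.09 and 0.17, and none passed the test. The dim library of pig 3 held the lowest dim level of COX6C, 231 CPM against 372 to 485 in the others. It held the highest of COX6A1, 433 CPM against 206 to 388. NDUFA4L2, a relative of NDUFA4 known to be induced by low oxygen, had 18 counts in the blood library of pig 1 and 0 in the other 14. COX8H, a subunit VIII isoform, had 0 counts in every library, a result that still allows up to 3 counts per library and covers counting error only. The main isoforms COX4I1, COX5A and COX8A were not analysed here.

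Complex I had 2 calls among 37 genes, both higher and both among the 30 accessory subunits. This share of 5.41% lies below the 8.62% of all genes called higher. NDUFB3, a subunit of the proton-pumping membrane arm, lies on chromosome 15 (104747835 to 104759137). Its levels were 62.9, 68.3, 42.6, 84.6 and 47.4 CPM in blood, 69.1, 78.8, 67.8, 78.8 and 44.4 in liver CD8α high, and 119, 79.2, 93, 106 and 94.8 in dim libraries. Each dim library lay above every liver CD8α high library, and all but that of pig 2 lay above the highest blood library. The log2 fold change against blood was 0.69 (SE 0.21, adjusted p = 0.0261). Against liver CD8α high cells it was 0.54, and not called (adjusted p = 0.1). The call against blood was lost without pig 1, 3 or 5.

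NDUFB2, of the same arm, lies on chromosome 18 (9135359 to 9150513). It measured 26.8, 17.5, 17.9, 17 and 20.8 CPM in blood, 33.8, 44.3, 49.6, 21.5 and 18.9 in liver CD8α high, and 37.8, 35, 66.2, 20.8 and 33.2 in dim libraries. The dim libraries of pigs 1, 2, 3 and 5 lay above the blood library of every pig, and so did 3 of the liver CD8α high libraries. The log2 fold change against blood was 0.94 in dim (SE 0.32, adjusted p = 0.0468) and 0.74 in liver CD8α high cells (SE 0.32, adjusted p = 0.927). Between dim and liver CD8α high cells it was 0.20 (adjusted p = 0.782, 95% interval -0.46 to 0.85). The highest dim value came from the library of pig 3, without which the change against blood was 0.68 (adjusted p = 0.121). The call was lost in 7 of 15 alternatives.

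**Figure D2:**
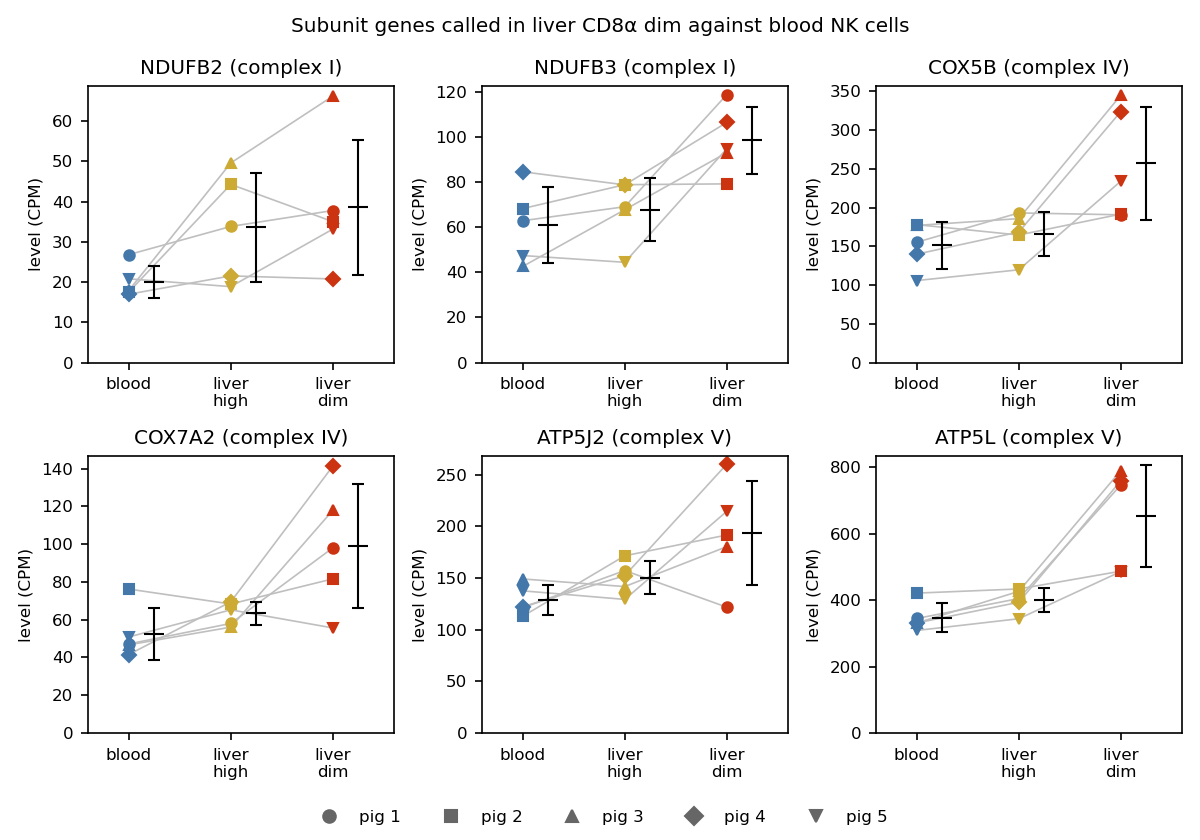
Level in CPM (y axis) of the 6 subunit genes called in dim against blood NK cells, by population (x axis), with one symbol per pig, grey lines joining the libraries of a pig, and black bars for the mean and SD of 5 pigs. For ATP5L every dim library lies above all others, whereas the populations of NDUFB2, COX7A2 and ATP5J2 overlap.

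The other accessory subunits of complex I ran from a log2 fold change of -0.79 in dim against blood for NDUFV3 (adjusted p = 0.261) to 0.55 for NDUFB11 (adjusted p = 0.142). NDUFB11, of the same membrane arm as NDUFB2 and NDUFB3, was higher in dim than in blood in 5 of 5 pigs, at 41.9, 29.3, 71.1, 44.7 and 47.5 CPM against 24.7, 25.5, 37.4, 39.4 and 32.8. NDUFS6, a zinc-binding subunit needed for assembly, was lower in 5 of 5 pigs, at 49, 24, 47.3, 57 and 64.5 CPM against 68.3, 59.8, 56.7, 78.4 and 87.7 (-0.53, adjusted p = 0.138). The populations overlapped for both genes, which were chosen after their values were seen.

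None of the 7 core subunits of complex I, which carry the flavin and the iron-sulfur clusters, was called. NDUFS1, the largest iron-sulfur subunit, measured 17.3 to 80.2 CPM in blood, 41.1 to 64.5 in liver CD8α high and 17.5 to 63.8 in dim libraries. Its log2 fold change in dim against blood was 0.09 (95% interval -0.64 to 0.82). NDUFV1, which binds NADH, measured 16.8 to 27.3 CPM in blood and 10.4, 5.76, 35.1, 16.9 and 13.3 in dim libraries. Its change of -0.46 was not called (adjusted p = 0.45), but without the dim library of pig 3, its highest value, the change was -0.91 and passed the test (adjusted p = 0.0488). NDUFAB1, the mitochondrial acyl carrier protein, which is also a complex I subunit, was called higher only in the 2 fits without that library (0.63 without the library alone, adjusted p = 0.0155, against 0.48 and 0.11 with it). NDUFV1 is named by rule, and NDUFAB1 was chosen after its values were seen.

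Complexes II and III gave no call. SDHA, the flavoprotein of succinate dehydrogenase, measured 30.2 to 58.9 CPM in blood and 33.1 to 62.8 in dim libraries (log2 fold change -0.07, 95% interval -0.55 to 0.40). SDHC, a membrane anchor, had a log2 fold change of -0.11. SDHB, the iron-sulfur subunit, measured 19.8, 18.6, 30.7, 64 and 26.3 CPM in blood and 17.4, 36.5, 2.44, 26.4 and 24.3 in dim libraries. Its change was -0.56 (adjusted p = 0.443), and -0.26 without dim pig 3, where it had 5 counts. SDHD, the other anchor, had 0 to 19 counts in a library and was not tested. Of complex III only UQCRB and UQCR10 were among the symbols, with log2 fold changes of 0.05 (adjusted p = 0.941) and 0.76 (adjusted p = 0.0841). UQCR10, a small subunit of that complex, measured 36, 47.1, 42.3, 19.2 and 27.3 CPM in blood, 24.5, 59.9, 54.9, 55 and 38 in liver CD8α high, and 29.1, 56.2, 72.1, 76.1 and 58.2 in dim libraries, so that dim was higher than blood in 4 of 5 pigs. The Rieske protein UQCRFS1 and the core protein UQCRC1 were not analysed here.

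Liver CD8α high and blood NK cells, which share the CD8α level and differ in organ, were not told apart by any subunit gene. None of the 67 genes was called with edgeR, and DESeq2 also called 0, with and without the pig as a block. The background was also low, at 0.0640% of all genes tested (7 genes, 0.0457% higher and 0.0183% lower), and with DESeq2 it was 0.123% without and 0.963% with the block. At an unadjusted p under 0.05 there was 1 subunit gene, NDUFB2 (1.49%, against 5.02% of all genes). This comparison shares its blood libraries with that of dim cells. The median log2 fold change was 0.08, against -0.02 over all genes. Of 67 intervals, 52 (77.6%) lay within a log2 fold change of 1 either way, against 52.0% of all genes tested. ATP5L was higher in liver CD8α high than in blood cells in 5 of 5 pigs, by 0.20 on the log2 scale (95% interval -0.13 to 0.54), and NDUFS3 was lower in 5 of 5.

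Dim against liver CD8α high cells, which share the organ and differ in CD8α, gave 2 calls among 67 genes, ATP5L and COX5B, both higher. That is 2.99%, below the 14.6% of all genes called in this comparison, with 6.96% higher and 7.68% lower. The median log2 fold change was 0.04, against 0.02 over all genes. At an unadjusted p under 0.05 there were 6 subunit genes (8.96%, against 24.9% of all genes), all higher: the 2 called and NDUFB3, COX7A1, COX7A2 and ATP5J2. This comparison shares its dim libraries with the one against blood. The 2 populations did not overlap for 2 subunit genes, ATP5L and NDUFB3, whose dim libraries were the higher ones, against 5.18% of all genes tested. Against blood the genes without overlap were ATP5L and COX5B, against 6.18% of all genes tested.

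**Figure D3:**
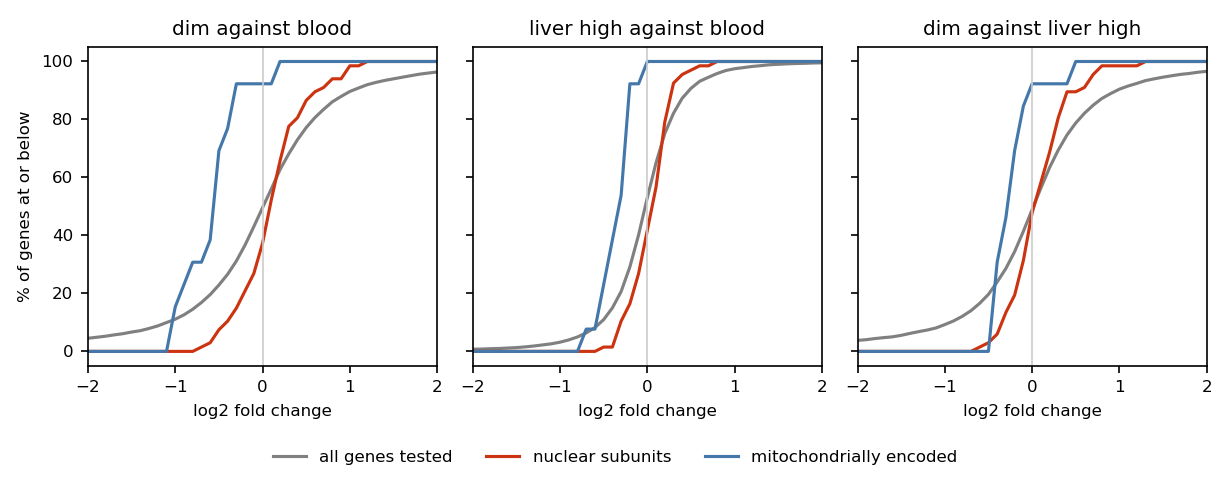
Percentage of genes (y axis) with a log2 fold change at or below the value on the x axis, for the nuclear subunit genes, the 13 mitochondrially encoded subunits and all genes tested, in the 3 comparisons. The nuclear subunits form a steeper curve than all genes in all 3 comparisons. Most mitochondrially encoded genes lie to the left in each, by the most in dim against blood.

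Summed over all 70 genes, the level was 5880 to 6964 CPM in blood (median 6619), 6342 to 7183 in liver CD8α high (median 6844) and 6649 to 9264 in dim libraries (median 6973). The dim library of pig 4 gave the 9264, and the other 4 dim libraries lay between 6649 and 7276, within or just above the range of the other populations. In that library 33 of 67 subunit genes (49.3%) had their highest dim value, against 21.2% of all genes tested, and so did 67 of 77 cytosolic ribosomal protein genes. By complex, the sums in blood, liver CD8α high and dim libraries had medians of 1846, 1909 and 1863 CPM for complex I, of 256, 249.7 and 261 CPM for complex II, and of 138, 210.4 and 168 CPM for the 2 genes of complex III. For complex IV they were 1271, 1427 and 1488 CPM, and for complex V 2932, 3046 and 3117 CPM. The ranges of all 3 populations overlapped for each complex. The 3 membrane genes of complex V, ATP5I, ATP5J2 and ATP5L, summed to 516 to 601 CPM in blood, 522 to 677 in liver CD8α high and 752 to 1111 in dim libraries, without overlap between dim and the others. This sum includes the 2 called genes and adds no evidence to them.

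In the dim library of pig 3, subunit genes departed in both directions, much as other genes did. It was the lowest dim library for 23 of 67 subunit genes (34.3%, against 31.9% of all genes) and the highest for 19 (28.4%, against 29.9%). NDUFA7 measured 1.95 CPM there, against 19.5 to 41.3 in the other dim libraries, and ATP5O 47.3 against 191 to 297. COX7A1 was instead at 44.3 CPM, against 8.36 to 18.7. These genes were chosen after their values were seen.

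**Figure D4:**
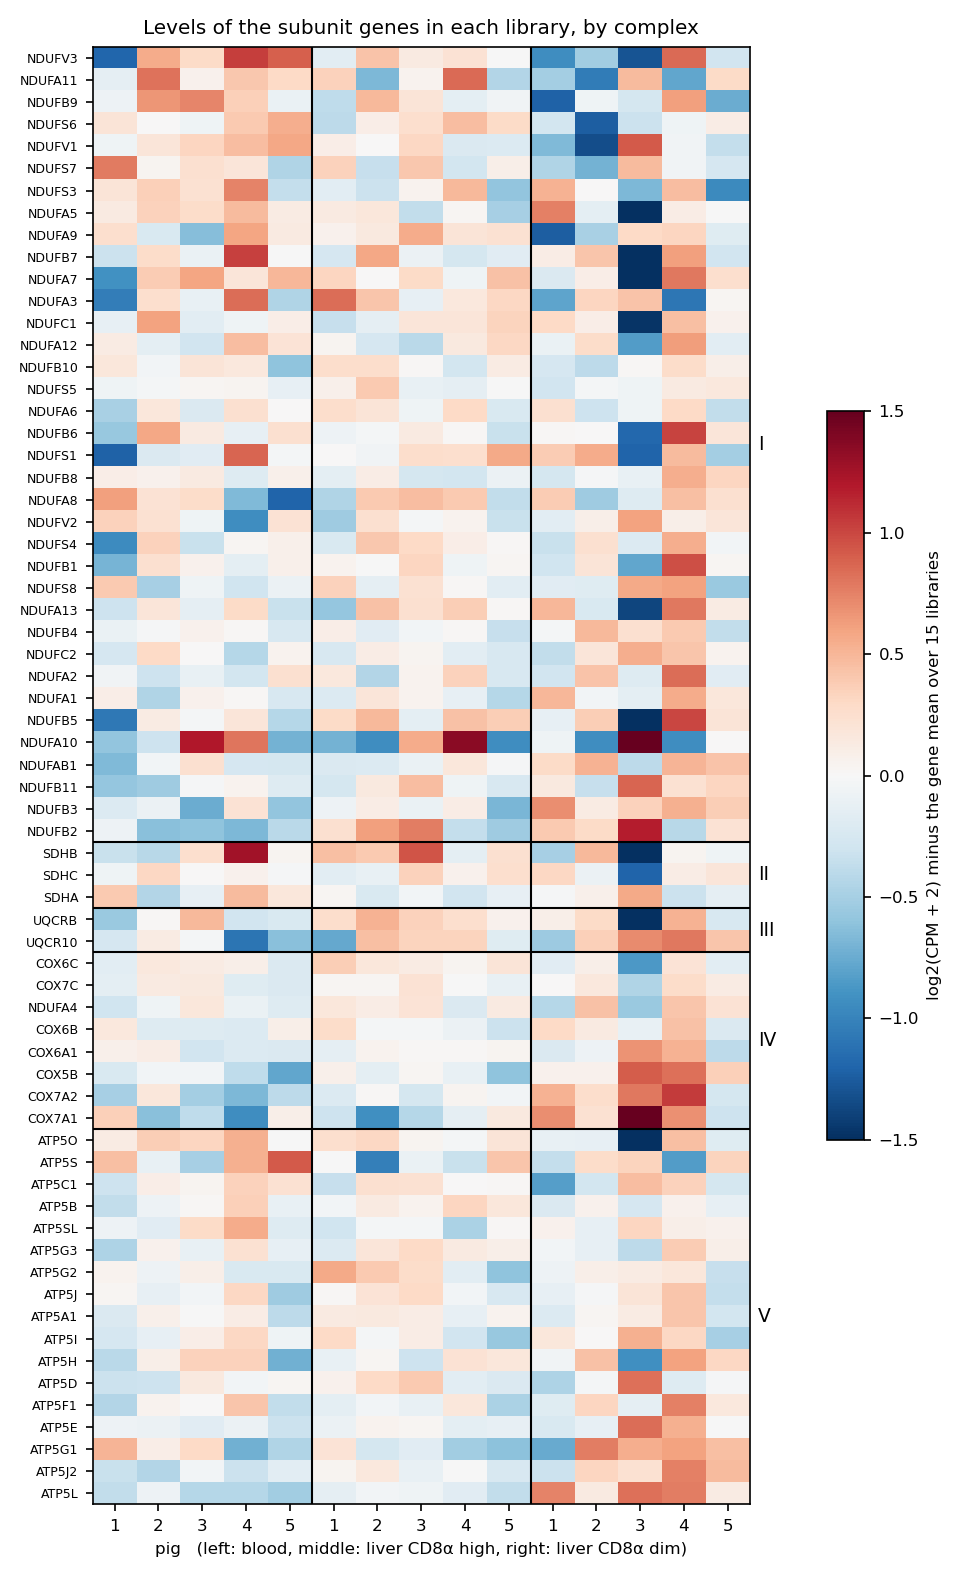
Level of 66 tested subunit genes (rows, by complex) in the 15 libraries (columns, by population and pig), as log2(CPM + 2) minus the mean of that gene over all libraries, with colours capped at 1.5 in either direction. Pig 3 of the dim population shows deep values in both directions, pig 4 is mostly red, and the called genes ATP5L, COX7A2 and COX5B are red in dim libraries.

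The subunits encoded by mitochondrial DNA, a list of 13 genes that are no members by symbol, were set apart. In dim against blood NK cells 8 of 13 were called lower and 0 higher, against 9.60% of all genes called lower. The median log2 fold change was -0.57, and it lay between -0.66 and -0.42 in the 15 alternatives, in which 4 to 11 genes were called lower (4 without pig 2, without pig 3 or with only these 2 populations, and 6 without the dim library of pig 3). CYTB, the only mitochondrially encoded subunit of complex III, measured 3812, 3671, 3521, 4681 and 2623 CPM in blood, 1898, 1766, 2521, 2569 and 2039 in liver CD8α high, and 1551, 1401, 1896, 2621 and 1393 in dim libraries. The blood libraries lay above all liver libraries, by a narrow margin over dim pig 4. The log2 fold change was -1.05 in dim (SE 0.19, adjusted p = 3.85e-04) and -0.76 in liver CD8α high cells (SE 0.19, adjusted p = 0.321). The latter passed the test in 4 alternatives, namely in edgeR blocked by pig (adjusted p = 0.0495), in both fits with DESeq2 and with only these 2 populations.

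Of the complex I genes of mitochondrial DNA, ND2, ND3 and ND1 were lower in dim than in blood in 5 of 5 pigs, by -1.05, -0.95 and -0.85 on the log2 scale. These 3 and CYTB were called in all 15 alternatives. ND4 (-0.57), COX2 (-0.61), ATP8 (-0.57) and ATP6 (-0.48) were called in 9 or 10 of them. ND4 (-0.41, adjusted p = 0.078) and ATP8 (-0.42, adjusted p = 0.0812) were not called without the dim library of pig 3. COX1, the catalytic subunit of complex IV, stood out from the list. It measured 1387, 1448, 1458, 1728 and 1674 CPM in blood, 1419, 1283, 1109, 1267 and 1229 in liver CD8α high, and 2062, 1755, 1329, 1622 and 1648 in dim libraries, with a log2 fold change of 0.13 in dim against blood (adjusted p = 0.585). Against liver CD8α high cells COX1 was higher in dim cells in 5 of 5 pigs (0.42, adjusted p = 0.0431), a call that 6 of 15 alternatives lost. The other 12 genes of the list had log2 fold changes below 0 in that comparison, and the median was -0.28. None of these was called without the block and with all pigs, but ND1 and ND2 were called lower in edgeR blocked by pig (adjusted p = 0.0397 and 0.0142), and ND3 joined them in DESeq2 with the block and in edgeR without pig 4. Liver CD8α high against blood gave 0 calls in this list in the edgeR fit of all 3 populations without the block, where 0.0640% of all genes were called. There were 6 genes at an unadjusted p under 0.05 (46.2%, against 5.02% of all genes), and the median was -0.32. Over the alternatives from 0 to 2 genes were called lower (CYTB, and once ND2).

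As a share of the scaled library total, the 13 mitochondrially encoded genes took 3.82%, 4.55%, 3.99%, 5.11% and 3.09% in blood, 2.96%, 3.48%, 3.26%, 3.25% and 3.15% in liver CD8α high, and 2.71%, 2.80%, 2.38%, 3.42% and 2.36% in dim libraries. The nuclear genes took 0.588% to 0.696% in blood, 0.634% to 0.718% in liver CD8α high and 0.665% to 0.926% in dim libraries. For every 100 mitochondrially encoded counts there were 13.6 to 19.0 nuclear ones in blood, 20.2 to 23.2 in liver CD8α high and 24.6 to 30.6 in dim libraries. The 3 populations did not overlap in this ratio, which was chosen after the values were seen and carries no test. A 3′ library counts polyadenylated ends, and how well it captures each of the 2 kinds of transcript was not tested, so that the level of the ratio is given for these libraries only.

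**Figure D5:**
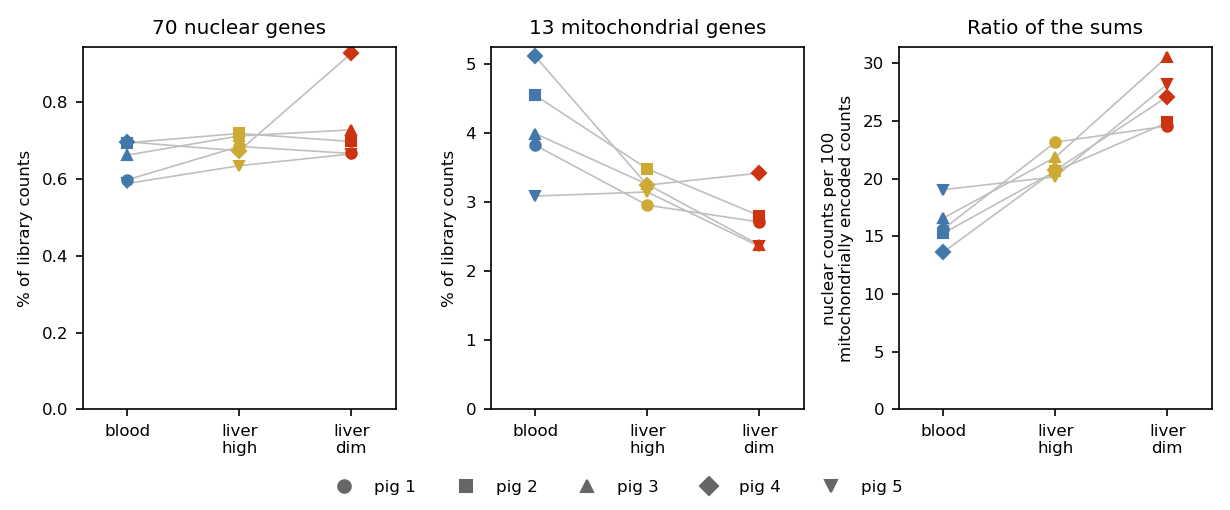
Summed levels of the 70 nuclear genes (left) and the 13 mitochondrially encoded genes (middle), in percent of the scaled library total, which the axes call library counts. The right panel gives nuclear counts per 100 mitochondrially encoded counts. Symbols mark the pigs in each population, and grey lines join the libraries of a pig. The ratio rises from 13.6 to 19.0 in blood over 20.2 to 23.2 in liver CD8α high to 24.6 to 30.6 in dim libraries.

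Factors that build the complexes were listed as 34 genes in the file, of which 32 were tested. In dim against blood 5 were called higher and 1 lower, a share of 18.8% against 18.2% of all genes tested, so the list as a whole lies at the background. Of 25 factors listed for complex IV 9 were analysed, and of these 3 were called, all higher (33.3%, against 8.62% of all genes called higher). CMC1, which accompanies newly made COX1, measured 75.1, 58.4, 57.8, 50.2 and 65.2 CPM in blood, 97.4, 93.1, 57.7, 66.2 and 49.7 in liver CD8α high, and 178, 179, 276, 213 and 173 in dim libraries. All dim libraries lay above all others, and the log2 fold change was 1.73 against blood (SE 0.21, adjusted p = 3.15e-06) and 1.49 against liver CD8α high cells (SE 0.21, adjusted p = 2.49e-05). Both calls were made in all 15 alternatives.

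COX17, the chaperone that carries copper to cytochrome c oxidase, measured 53.1, 75.1, 73.5, 92.1 and 85.6 CPM in blood, 163, 143, 138, 118 and 129.9 in liver CD8α high, and 277, 256, 74, 318 and 251 in dim libraries. The liver CD8α high libraries all lay above blood. So did the dim libraries except that of pig 3, which lay among the blood values. The log2 fold change was 1.63 in dim against blood (SE 0.27, adjusted p = 1.34e-04), called in all 15 alternatives, and 0.86 in liver CD8α high against blood (adjusted p = 0.544). Without the dim library of pig 3 the latter was 0.88 and called (adjusted p = 0.0208), and so was dim against liver CD8α high (1.00, adjusted p = 1.24e-04, against 0.77 and 0.0511 with it). Liver CD8α high against blood was also called in the fit of only these 2 populations, which holds no dim library. With all libraries kept, dim against liver CD8α high was called in 6 alternatives, among them DESeq2 and library totals. In dim against blood CMC2 (1.55), NDUFAF1 for complex I (1.14) and TMEM70 for complex V (1.16) were called higher and TIMMDC1 for complex I lower (-0.79). Each was lost in 3 to 8 alternatives. Without pig 1 or pig 5 CMC1 and COX17 were the only factors called in that comparison. With the dim library of pig 3 left out, CMC2 was not called (1.22, adjusted p = 0.101), NDUFAF7 was called lower (adjusted p = 0.0435) and NDUFAF1 was called higher in dim than in liver CD8α high cells (0.81, adjusted p = 0.0388). With the pig as a block CMC2 and TMEM70 were not called (adjusted p = 0.0744 and 0.053), and NDUFAF7 was added among the lower genes (adjusted p = 0.0258).

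Among electron carriers, GPD2, which feeds electrons from cytosolic glycerol 3-phosphate into ubiquinone, measured 32.5 to 90.1 CPM in blood, 58 to 88.1 in liver CD8α high and 98.4 to 173 in dim libraries, without overlap between dim and the others. The log2 fold change was 1.36 against blood (adjusted p = 4.92e-04) and 0.89 against liver CD8α high cells (adjusted p = 0.0178), the second lost without pig 2 or pig 5. It was 1 call among 5 tested carriers (20%, against 18.2% of all genes). A further gene was called without the dim library of pig 3, ETFA, a subunit of the electron transfer flavoprotein (0.77, adjusted p = 0.0325, against 0.46 and 0.528 with it). CYCS, which encodes cytochrome c, had a log2 fold change of 0.30 (adjusted p = 0.443). Of 18 tested genes of the tricarboxylic acid cycle and pyruvate dehydrogenase, 1 was called, IDH2, the mitochondrial NADP-dependent isocitrate dehydrogenase, by 1.43 (adjusted p = 0.00239, and 1.03 without the dim library of pig 3). Against liver CD8α high cells IDH2 was higher by 1.56 (adjusted p = 0.00128), called in all 15 alternatives. Of 16 tested glycolysis genes 1 was called lower, ENO1 (-0.64, adjusted p = 0.0124). GPD2, IDH2 and ENO1 were called against blood in all 15 alternatives. The shares called of the latter lists, 5.56% for the cycle and 6.25% for glycolysis, lie below the 18.2% of all genes tested.

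Regulators of mitochondrial biogenesis gave 0 calls among 17 tested genes in dim against blood, where 18.2% of all genes were called, with 3 at an unadjusted p under 0.05 (17.6%, against 29.5% of all genes, edgeR). The 3 were ESRRA, an orphan nuclear receptor (0.71, adjusted p = 0.0745, and called at 0.90 without the dim library of pig 3, adjusted p = 0.00801, where it was also called against liver CD8α high cells, 0.84, adjusted p = 0.0157), SIRT1 and TFAM. SIRT1, a deacetylase, was lower in 5 of 5 pigs (-0.45, adjusted p = 0.0755, and 0.0431 with the pig as a block). TFAM, which packages mitochondrial DNA and starts its transcription, was higher in 5 of 5 pigs, at 28.4 to 42.3 CPM in dim and 11.9 to 29 in blood libraries (0.66, adjusted p = 0.123). NRF1 and GABPA, known regulators of subunit genes, had log2 fold changes of -0.04 and 0.11. The coactivator PPARGC1A had 0 counts in every blood library and at most 5 in a liver CD8α high and 27 in a dim library, and was not tested. Its relative PPARGC1B (-0.61, adjusted p = 0.688) and the growth regulator MYC (0.65, adjusted p = 0.516) were not called. Mitochondrial ribosomal proteins had 4 genes called higher (MRPL15, MRPL44, MRPS16 and MRPS26) and 1 lower (MRPL1) among 76, with a median of 0.26, each lost in 4 to 9 alternatives. The share called was 6.58%, against 18.2% of all genes tested. MRPS16 remained called without the dim library of pig 3 (0.87, adjusted p = 0.00919) and the other 4 were not, with adjusted p between 0.0548 and 0.121. MRPL42 (1.14, adjusted p = 0.00939) and MRPL47 (0.56, adjusted p = 0.0313) were then called higher. In edgeR with the pig as a block MRPL15 and MRPL44 were not called, and 3 genes of this list were higher and 1 lower. The cytosolic ribosomal proteins had 0 of 77 with a median of -0.08, 10 of them (13%, against 29.5% of all genes) at an unadjusted p under 0.05. With the pig as a block 2 were lower. Once the dim library of pig 3 was left out, the median was 8.32e-04, and RPL23 (0.70, adjusted p = 0.00389) and RPL7L1 (0.77, adjusted p = 0.0419) were called higher and RPL3 lower (-0.45, adjusted p = 0.0375).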

How the data were processed

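Reads were trimmed by the authors and mapped with HISAT2, which the submitters' processing notes also name, on Sscrofa11.1. They deposited raw counts of reads per gene, whole numbers without normalization. The counting tool, strand setting and treatment of reads with several alignments are not given in the sources used here. A strand-blind count cannot separate overlapping genes. ATP5L shares 324 bases with LOC102167309 (0 to 17 counts), COX6C 3436 with VPS13B and ATP5J 722 with GABPA. Near-identical copies could also take or lose reads.

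Tests on these counts used edgeR 4.0.16 under R 4.3.3 (TMM, default filter with a minimum count of 10, quasi-likelihood test, Benjamini-Hochberg adjustment over 10939 genes), all 15 libraries in 1 fit by population. Levels are CPM of the scaled library totals, which are those over the genes tested times the TMM factor. The unscaled totals over all genes had a median of 3686363 counts. Alternatives were DESeq2 1.42.0, its size factors in edgeR, library totals, no filter or a minimum count of 30, robust dispersion, only the 2 populations compared, the pig as a block, and each pig left out; leaving out the dim library of pig 3 was added after seeing the data. That libraries share a pig is stated in the labels and in the study's methods. Deviations from the population means correlated by 0.12 on average within pigs and by -0.03 between them. Figures used Python 3.11.15 and matplotlib 3.10.9.

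The members and lists were chosen with earlier results of these data known. Genes named are those called (up to 4 per complex and direction), the 5 with the most counts, catalytic and core subunits, isoform pairs, members not detected, and called genes of the other lists, with markers in checks of the sort. The other genes named, such as ATP5I, ATP5O, UQCR10, NDUFA10 and NDUFS3, were chosen after their values were seen. Coordinates come from a RefSeq table of the same assembly, which gave all 70 genes. Values of 1 gene are not reported here. Sequences were not used here.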

Additional observations from a re-analysis of the deposited data

Results flagged for a closer look

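Of 88 sets of 5 libraries (named genes and sums by complex, in each population), 11 held a library set far apart from the other 4 by Dixon's test at the 95% level. Chance gives about 1 such set in 20.

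In dim libraries, pig 3 stood apart for COX7A1 at 44.33 CPM (others 8.36 to 18.7), for SDHD at 9.255 CPM (0 to 1.4) and for the sum of complex II at 153.9 CPM (255 to 287). Pig 4 stood apart for the sum of all subunit genes, 9264 CPM (6649 to 7276), and for that of complex I, 2510.0 CPM (1708 to 1896).

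In blood, COX7A2 was high in pig 2 at 76.2 CPM (41.6 to 50.8), SDHB in pig 4 at 63.96 CPM (18.6 to 30.7), and NDUFA4L2 in pig 1 at 4.878 CPM (0 in the others). In liver CD8α high libraries, COX6A1 was low in pig 1 at 245.9 CPM (272 to 281), NDUFA4 was low in pig 4 at 108.9 CPM (137 to 146), and SDHD was high in pig 5 at 4.538 CPM (0 in the others).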

How the results depend on the processing

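In dim against blood, the count of 6 called subunit genes ran from 3 to 5 when each pig was left out (3 without pig 4 and 3 without pig 5), and ATP5L was called each time. In dim against liver CD8α high cells, the count of 2 became 4 with DESeq2 (COX7A1 and COX7A2 were added), 1 in a fit of only these 2 populations and 1 without the dim library of pig 3, and ran from 1 to 3 when each pig was left out (1 without pig 2, 3 or 4). In liver CD8α high against blood it stayed at 0 in all 15 alternatives. Median log2 fold changes with a pig left out ran from 0.02 to 0.13, from 0.05 to 0.09 and, for dim against liver CD8α high, from -0.08 to 0.12, so the sign of the last was not stable. With the pig as a block the counts were 6, 0 and 2, and the block changed no call among subunit genes in edgeR. In DESeq2, in dim against liver CD8α high cells, it removed COX7A1 and COX7A2 and added NDUFB3 (adjusted p = 0.0372), so that 4 calls became 3. For the subunit genes named by rule, over the 3 comparisons and 15 alternatives, 22 values lost a call, 7 gained one, 961 kept theirs and 0 reversed a call. NDUFAB1 and UQCR10, which the rule does not name, also gained calls, in 2 fits and in 1. Depth limits genes with few counts: NDUFA10, with 0 to 45 counts in a library, had a 95% interval of -2.29 to 3.22.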

Other observations

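Several subunit genes were called only under single alternatives. UQCR10 passed the test in dim against blood without pig 1, and ATP5G1 in dim against liver CD8α high cells without pig 1 (log2 fold change 1.08, adjusted p = 0.0451). SUCLA2, a subunit of succinyl-CoA ligase, was called higher in dim than in liver CD8α high cells (1.30, adjusted p = 0.0241), at 15.1 to 29.2 CPM against 5.8 to 15.5. MRPL36, a mitochondrial ribosomal protein, was called in the same comparison (2.06, adjusted p = 0.0238). RPL36AL, a ribosomal protein gene, was called lower in that comparison (-0.56, adjusted p = 0.0436), and so was ENO1 of glycolysis (-0.55, adjusted p = 0.0362), a call lost with any 1 pig left out and with only the 2 populations. Without the dim library of pig 3, MRPL36 (1.00, adjusted p = 0.221) and RPL36AL (-0.43, adjusted p = 0.0777) were not called, and MRPL13 (1.18, adjusted p = 0.0436) and RPL23 (0.62, adjusted p = 0.0127) were called higher in that comparison. SUCLA2 was not called without pig 1, 2, 3 or 4 or with no filter on low counts.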
